A study of Mus musculus with 6 samples.

Results

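Expression of 10 genes that mark Purkinje cells and granule cells of the cerebellum was compared between adult mouse brains without and with Bahd1. They were Pcp2, Calb1, Car8, Itpr1, Pvalb and Ppp1r17, which are strongly expressed in Purkinje cells, and Cbln1, Cbln3, Zic1 and Neurod1, which are strongly expressed in granule cells. The genes were taken by symbol from the deposited table of read counts, which lists 53801 genes and in which each symbol had 1 entry, and all 10 were among the 23975 genes tested. Of the 10, Pcp2 alone differed by more than 1.5-fold between the genotypes: it averaged 7.47-fold higher in Bahd1-KO brains, with a wide spread between the mice, and did not pass the adjusted test of edgeR. The 9 others stayed within 1.5-fold, and their differences were ordered largely by the GC content of their longest transcripts. Pvalb stood apart from the trend of all genes by the longest and by the coding transcripts. The gaps of Cbln1, Zic1 and Cbln3 from that trend depended on which transcripts were used.

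Polyadenylated RNA was measured by RNA-seq in the adult brain of 3 Bahd1-WT mice (Bahd1+/+) and 3 Bahd1-KO mice (Bahd1-/-), all of strain C57BL/6 and about 70 weeks old, with no further treatment. Bahd1 encodes a chromatin protein that takes part in gene repression, and it is inactivated in the whole animal and from conception, so the comparison does not separate an effect in the adult cerebellum from one in development or in other organs. Each brain was cut sagittally, and the RNA of one hemisphere of one mouse made one library. The labels name the samples as separate, and the p-values given here measure the spread between these 6 mice. The methods describe the mice as male.

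The cerebellar cortex has a small number of very large Purkinje cells and a vast number of small granule cells. Granule cells send parallel fibres to the dendrites of Purkinje cells, which are the only output neurons of the cortex, use GABA and are rich in calcium-handling proteins. At this synapse the secreted protein cerebellin-1, made by granule cells and encoded by Cbln1, takes part in joining the parallel fibre to the Purkinje cell. Several of the 10 genes are not restricted to these cells: Calb1 and Pvalb are also made by forebrain neurons, Itpr1 by many neurons, and Neurod1 by the granule cells of the dentate gyrus. A whole hemisphere was measured, so fewer cells of a type and less RNA per cell cannot be told apart.

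Because the differences between the genotypes followed base composition, the last 150 coding bases of 3 of the genes are shown as the clearest view of the contrast, with G and C in capitals. They are the genes with the lowest and the highest GC content of the longest transcript among the 10, and Pcp2. The sequences are transcripts of the GENCODE M21 annotation of the mouse genome build GRCm38, and they run 5′ to 3′ up to the base before the stop codon.
Calb1, coding sequence between chr4:15881399-15904760 on the plus strand: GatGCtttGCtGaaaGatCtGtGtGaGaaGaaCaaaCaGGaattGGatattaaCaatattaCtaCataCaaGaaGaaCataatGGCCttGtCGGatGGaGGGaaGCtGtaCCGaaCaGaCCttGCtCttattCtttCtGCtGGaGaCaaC
Cbln1, coding sequence between chr8:87470257-87472240 on the minus strand: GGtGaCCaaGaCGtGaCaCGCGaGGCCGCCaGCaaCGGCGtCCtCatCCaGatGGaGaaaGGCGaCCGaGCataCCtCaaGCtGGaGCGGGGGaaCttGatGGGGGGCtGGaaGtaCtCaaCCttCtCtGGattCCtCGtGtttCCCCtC
Pcp2, coding sequence between chr8:3623442-3625520 on the minus strand: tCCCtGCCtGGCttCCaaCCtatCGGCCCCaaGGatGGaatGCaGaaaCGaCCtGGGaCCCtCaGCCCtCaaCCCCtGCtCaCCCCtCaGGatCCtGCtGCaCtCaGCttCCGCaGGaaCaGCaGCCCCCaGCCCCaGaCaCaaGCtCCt
G and C made up 40.7% of the window of Calb1, 60.0% of that of Cbln1 and 62.7% of that of Pcp2. Over the whole coding sequence the shares were 43.2% of 783 bases, 58.5% of 579 bases and 60.0% of 408 bases. Over the longest transcript, untranslated parts included, GC content was 36.8% for Calb1 and 56.2% for Cbln1. For Pcp2 it was 51.1%, but the longest annotated transcript of Pcp2 retains introns and has no coding sequence. Its 6 coding transcripts had a median length of 514 bases and GC contents of 50.7% to 59.0%, with a median of 57.8%.

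The libraries held 42297150 to 93557948 counts. Bahd1 had 1383, 844 and 1099 counts in Bahd1-WT replicates 1 to 3 and 0, 14 and 1 counts in Bahd1-KO replicates 1 to 3, as their labels have it. Levels are given as CPM, the count scaled to the library size after TMM normalization, and a gene was called at an adjusted p-value under 0.05 in edgeR's quasi-likelihood test with a change of at least 2-fold. Over 13283 expressed genes, the log2 fold change followed GC content with a Spearman correlation of 0.86 across genes, which are not independent replicates. In single libraries, the level over the mean of the 6 libraries correlated with GC content at -0.74, -0.83 and -0.79 in Bahd1-WT replicates 1 to 3, at -0.21 in Bahd1-KO replicate 1, at 0.88 in Bahd1-KO replicate 2 and at 0.71 in Bahd1-KO replicate 3. GC content, genotype and library are thus not independent here, and Bahd1-KO replicate 2 stood farthest out. Fold changes of the 10 genes are also given without that mouse. As an alternative, the part of log2 CPM that a smooth curve of GC content and length described in a library was removed as an offset, once with the longest transcript of each gene and once with its coding transcripts, the latter chosen after the data were seen.

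The clearest difference was in Pcp2 (chr8:3623371-3625545, minus strand), which encodes Purkinje cell protein 2, a regulator of G protein signalling found in Purkinje cells and in bipolar cells of the retina. Its level was 8.88, 6.03 and 3.85 CPM in Bahd1-WT replicates 1 to 3 and 15.5, 94.2 and 30.4 CPM in Bahd1-KO replicates 1 to 3, from 813, 372 and 282 counts and from 674, 8966 and 1763 counts. All 3 Bahd1-KO mice lay above all 3 Bahd1-WT mice, and Bahd1-KO replicate 2 was far above the next. The highest library was 24.5 times the lowest, the widest range among the 10 genes. The mean was 6.25 ± 2.53 CPM (SD, n = 3) for Bahd1-WT and 46.7 ± 41.8 CPM (SD, n = 3) for Bahd1-KO mice. This is a log2 fold change of 2.90 with a standard error of 0.63. Its adjusted p-value in edgeR's quasi-likelihood test was 0.0634, from an unadjusted p of 0.00139, so Pcp2 was not called. An adjusted p under 0.1 in the same test was reached by 19.5% of all genes. The Wald test of DESeq2 with a normal prior, which shrinks fold changes, gave 2.04 and an adjusted p of 0.00472 and called it. With the GC and length offset of longest transcripts, DESeq2 with the same prior gave 0.96 and an adjusted p of 0.0158. This is under 2-fold, so that the call was lost. Both DESeq2 values are shrunken: without the prior and the offset DESeq2 gave 2.93, and it was not run with the offset alone. In edgeR, which does not use this prior, the same offset gave 2.63. Over its alternatives the adjusted p of Pcp2 ran from 0.00428 to 0.243. Among 13292 expressed genes, 49 (0.369%) had a log2 fold change at least as large as that of Pcp2.

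The size of the Pcp2 difference depended on the mice compared. Without Bahd1-KO replicate 2 the log2 fold change was 1.89 with a standard error of 0.36, and the adjusted p was 0.0501 in edgeR. Without Bahd1-KO replicate 1 it was 3.36 with an adjusted p of 0.00529 in edgeR, which called it, in a comparison that called 16.8% of all genes. With the GC and length offset of longest transcripts, the log2 fold change of Pcp2 was 2.63 with a standard error of 0.55 and an adjusted p of 0.0783 in edgeR. With the offset of coding transcripts it was 1.53 with a standard error of 0.35 and an adjusted p of 0.0884 in edgeR. The direction was the same in these 4 fits and in DESeq2 with the offset.

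Pcp2 shares 941 exon bases, 51.5% of its exon length, with Pet100 on the opposite strand, a gene for a chaperone of cytochrome c oxidase assembly. Pet100 had 18.1, 15.8 and 21 CPM in Bahd1-WT and 21.1, 18.2 and 14.3 CPM in Bahd1-KO replicates 1 to 3. These values overlapped between the genotypes, and the log2 fold change was -0.04, and -0.06 without Bahd1-KO replicate 2, against 2.90 and 1.89 for Pcp2. The methods state that reads were counted by strand. Whether the strands were separated at this locus was not tested.

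Pcp2 was also set against each of the 9 other genes within the same library, a measure that depends on neither library size nor normalization. The GC trend of each library still enters these ratios, since the genes differ in GC content. The ratio of Pcp2 to Ppp1r17, a Purkinje cell gene with similar levels in all libraries, was 0.109, 0.0662 and 0.0460 in Bahd1-WT and 0.194, 1.43 and 0.434 in Bahd1-KO replicates 1 to 3. The genotypes did not overlap in this ratio, which differed by 2.83 on the log2 scale. For the other 8 genes the difference of the ratio was 2.08 to 3.12 on the log2 scale, smallest against Pvalb and largest against Calb1, and the genotypes did not overlap in any. An exact two-sided permutation test gave p = 0.1 for each of the 9 ratios, the smallest value that 3 against 3 mice allow. The ratios share the counts of Pcp2 and are not separate evidence.

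**Figure D1:**
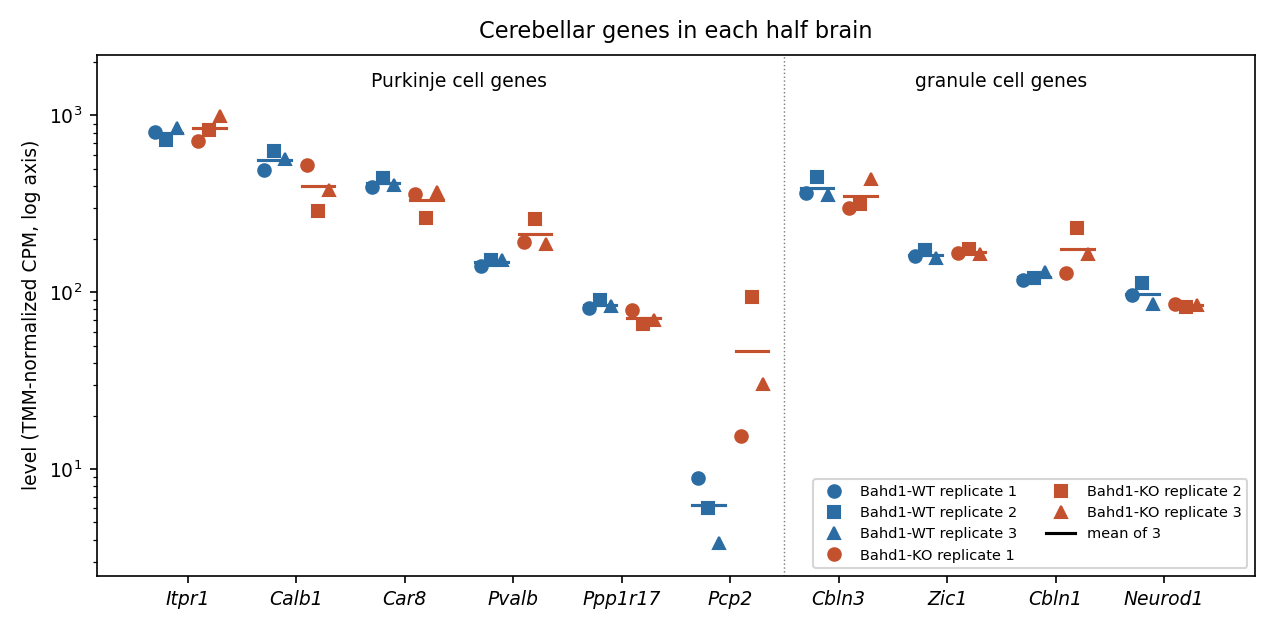
Level of each gene in each hemisphere, in TMM-normalized CPM on a log axis, with blue for Bahd1-WT, orange for Bahd1-KO, a symbol for each replicate number and a line at the mean of 3 mice. Pcp2 spans from 3.85 to 94.2 CPM, while the other genes vary little between the hemispheres on this scale.

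The other Purkinje cell genes differed far less. Pvalb (chr15:78191114-78206400, minus strand) encodes parvalbumin, a calcium buffer of Purkinje cells and of fast-spiking interneurons. Its level was 140.0, 152 and 153 CPM in Bahd1-WT and 192, 259 and 188 CPM in Bahd1-KO replicates 1 to 3. The 3 Bahd1-KO mice lay above the 3 Bahd1-WT mice. The log2 fold change was 0.52 with a standard error of 0.17, and edgeR gave an unadjusted p of 0.0142 and an adjusted p of 0.0878. The GC content of its longest transcript was 49.3%, and with the offsets its log2 fold change was 0.40 and 0.55. Without Bahd1-KO replicate 2 the log2 fold change of Pvalb was 0.35.

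Calb1 (chr4:15881264-15908064, plus strand) encodes calbindin, the other main calcium buffer of Purkinje cells. It was at 492, 628 and 569 CPM in Bahd1-WT and at 524, 289 and 379 CPM in Bahd1-KO replicates 1 to 3. Bahd1-KO replicates 2 and 3 lay below all Bahd1-WT mice, but Bahd1-KO replicate 1 lay among them, so the groups overlapped. Its log2 fold change of -0.50 had a standard error of 0.23 and an unadjusted p of 0.0544 in edgeR's quasi-likelihood test. With the offset of longest transcripts it was 0.11, and the adjusted levels were 401 to 473 CPM in Bahd1-WT and 465 to 498 CPM in Bahd1-KO mice.

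Car8 (chr4:8143362-8239041, minus strand) encodes a carbonic anhydrase-related protein that binds the inositol trisphosphate receptor. It measured 395, 444 and 405 CPM in Bahd1-WT and 361, 263 and 369 CPM in Bahd1-KO replicates 1 to 3. The 3 Bahd1-KO mice lay just under the 3 Bahd1-WT mice, with Bahd1-KO replicate 2 farthest down. On the log2 scale the difference was -0.33 with a standard error of 0.17, and 0.10 with the offset.

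Itpr1 (chr6:108213096-108551109, plus strand), the gene for the inositol trisphosphate receptor that releases calcium from the endoplasmic reticulum, had 806, 724 and 849.7 CPM in Bahd1-WT and 719.9, 825 and 996 CPM in Bahd1-KO replicates 1 to 3. These levels were mixed between the genotypes, with both the lowest and the highest in Bahd1-KO mice. Itpr1 had a log2 fold change of 0.09 with a standard error of 0.17, and its sign turned with upper-quartile factors and without Bahd1-KO replicate 3.

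Ppp1r17 (chr6:56017497-56032689, plus strand) encodes a protein phosphatase inhibitor of Purkinje cells, also called G-substrate. Its levels were 81.4, 91.0 and 83.6 CPM in Bahd1-WT and 79.9, 65.9 and 70.2 CPM in Bahd1-KO replicates 1 to 3. The groups lay next to each other without overlap, and the log2 fold change was -0.24 with a standard error of 0.15. It was 0.03 with the offset of longest transcripts.

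Of the granule cell genes, Cbln1 (chr8:87468405-87472609, minus strand) showed the largest difference without the offset. It was at 117, 121 and 129.9 CPM in Bahd1-WT and at 129, 231 and 164 CPM in Bahd1-KO replicates 1 to 3. Bahd1-KO replicates 2 and 3 lay above all other libraries, and Bahd1-KO replicate 1 lay within the range of Bahd1-WT. The log2 fold change was 0.51 with a standard error of 0.22, an unadjusted p of 0.0422 and an adjusted p of 0.144 in edgeR. With the offset of longest transcripts it changed sign to -0.41, with adjusted levels of 139.8, 187 and 174 CPM in Bahd1-WT and of 128, 118 and 131 CPM in Bahd1-KO replicates 1 to 3, and the genotypes then did not overlap. It was -0.18 with the offset of coding transcripts. The sign of the difference in Cbln1 thus depended on the treatment of GC content.

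Cbln3 (chr14:55878913-55884392, minus strand) encodes a cerebellin that granule cells secrete together with cerebellin-1. Its level was 366, 447 and 356 CPM in Bahd1-WT and 298, 318 and 434 CPM in Bahd1-KO replicates 1 to 3. The libraries of the genotypes were mixed, and Cbln3 had a log2 fold change of -0.15 with a standard error of 0.19. It was -0.12 with the offset of longest transcripts and -0.39 with that of coding transcripts (unadjusted p = 0.0456 in edgeR).

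Zic1 (chr9:91358058-91365810, minus strand) encodes a zinc finger transcription factor of granule cells, and without the offset it varied least of the 10 genes between the libraries. Its level was 161, 172 and 156 CPM in Bahd1-WT and 166, 176 and 164 CPM in Bahd1-KO replicates 1 to 3, a range of 1.13-fold from the lowest to the highest library. It differed by 0.05 on the log2 scale with a standard error of 0.14, which turned negative with upper-quartile factors. The difference was 0.31 with the offset of longest transcripts (unadjusted p = 0.0267 in edgeR) and 0.13 with that of coding transcripts.

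Neurod1 (chr2:79452521-79456751, minus strand), a helix-loop-helix transcription factor that granule cells need to differentiate and survive, had 97.1, 112 and 86.0 CPM in Bahd1-WT and 85.6, 82.3 and 85.3 CPM in Bahd1-KO replicates 1 to 3. The Bahd1-KO mice were nearly equal to each other and to the lowest Bahd1-WT mouse. Neurod1 differed by -0.22 on the log2 scale with a standard error of 0.15, and by 0.15 with the offset. The gene shares 201 exon bases, 7.37% of its exon length, with Cerkl on the same strand.

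None of the 10 genes was called in edgeR, beside 0.00834% of all genes tested, which were 2 genes, Bahd1 among them. With its normal prior, DESeq2 called 1 of the 10, Pcp2, beside 10.5% of all genes. An unadjusted p under 0.05 in edgeR was reached by 3 of the 10, Pcp2, Pvalb and Cbln1, each higher in Bahd1-KO brains, beside 31.8% of all genes (19.9% higher and 12% lower). The genotypes did not overlap for 5 of the 10 genes, with Pcp2 and Pvalb higher and Car8, Neurod1 and Ppp1r17 lower in Bahd1-KO mice, beside 39.8% of all genes (20.6% higher and 19.3% lower). With the offset of longest transcripts, 4 of the 10 had an unadjusted p under 0.05 in edgeR, Pcp2, Pvalb and Zic1 higher and Cbln1 lower, beside 21.3% of all genes. For the offset of coding transcripts these were 3 of the 10, Pcp2 and Pvalb higher and Cbln3 lower, beside 21% of all genes. Without Bahd1-KO replicate 1, 4 of the 10 had an adjusted p under 0.05 in edgeR, Pcp2, Cbln1 and Pvalb higher and Calb1 lower, beside 30% of all genes. Without Bahd1-KO replicate 2 none was called, and the log2 fold changes were 0.26 for Cbln1, -0.33 for Calb1, -0.19 for Car8, -0.09 for Cbln3, 0.11 for Itpr1, 0.01 for Zic1, -0.21 for Neurod1 and -0.19 for Ppp1r17, each with the sign it had with all 6 mice. The median log2 fold change with all mice was -0.05 over the 10 genes and -0.06 over all genes tested. A p over the threshold does not show that a gene was equal in both genotypes: the standard errors of 0.14 to 0.23 for the 9 genes other than Pcp2 are of the size of most of their differences.

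**Figure D2:**
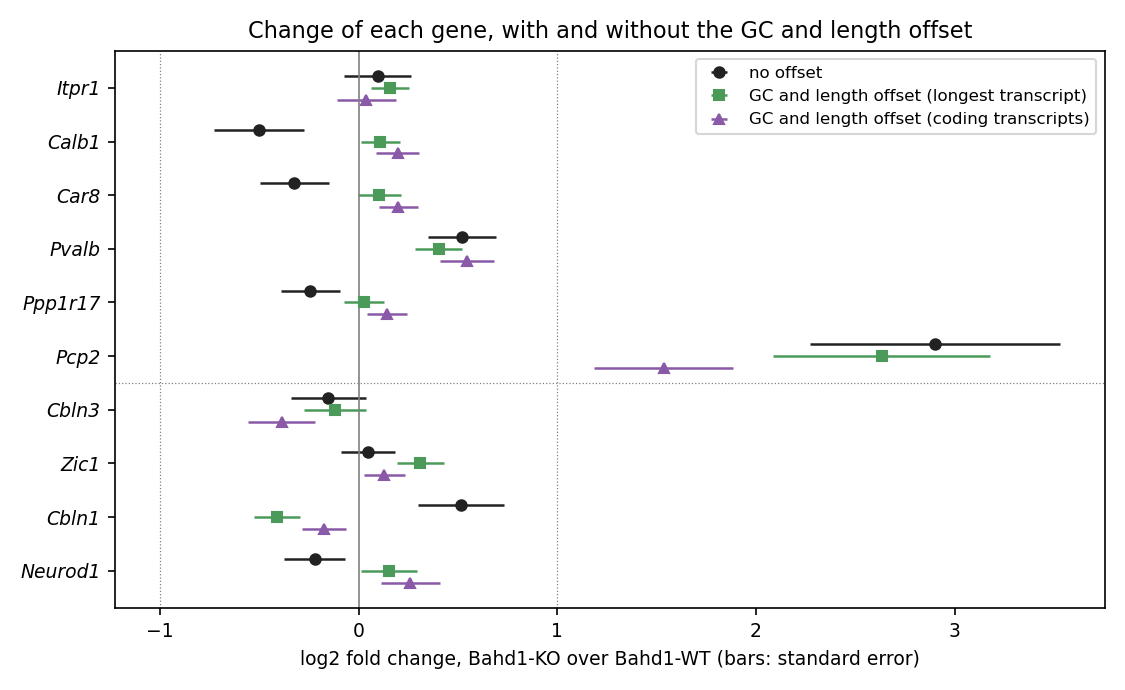
Log2 fold change of each gene, Bahd1-KO over Bahd1-WT, with its standard error, without an offset (black), with the GC and length offset of longest transcripts (green) and with that of coding transcripts (purple), from edgeR on 3 mice per genotype. Pcp2 lies at 2.90, 2.63 and 1.53, while Cbln1 changes from 0.51 to -0.41 and -0.18, and dotted lines mark 2-fold changes.

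Levels of different genes were compared per kilobase of exon, counting each base that is exonic in any transcript. This length can far exceed that of the transcripts made, with 1828 bases for Pcp2 against a median coding transcript of 514, and 18319 bases for Itpr1 against a longest of 9870, and the GC trend of the libraries also enters the order. On this scale Pvalb stood highest in Bahd1-WT brains with a mean of 143 CPM per kilobase, followed by Calb1 with 116 and Car8 with 108. Cbln3 had 80.0, Ppp1r17 48.6, Itpr1 43.3, Cbln1 40.3, Neurod1 36.1 and Zic1 28.7 CPM per kilobase. Pcp2 was last on this scale, with 4.86, 3.30 and 2.10 CPM per kilobase in Bahd1-WT replicates 1 to 3. In Bahd1-KO brains Pcp2 had 8.47, 51.5 and 16.7 CPM per kilobase in replicates 1 to 3. In Bahd1-KO replicate 2 this was above Itpr1 with 45.1, Ppp1r17 with 37.5, Zic1 with 31.0 and Neurod1 with 30.2 CPM per kilobase of the same library, and below the other 5 genes. Among neighbours in the Bahd1-WT order, Calb1 and Car8 overlapped, with 102 to 129.7 and 103 to 115 CPM per kilobase, and so did Ppp1r17 and Itpr1, Itpr1 and Cbln1, and Cbln1 and Neurod1.

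The order of the log2 fold changes of the 10 genes largely followed GC content. The Spearman correlation was 0.92 over the 10 genes and 0.92 over the 9 without Pcp2, given as a description of genes that share the same 6 libraries. These GC contents are those of the longest transcripts, of which Calb1 had the lowest and Cbln1 the highest. By the median of coding transcripts, Pcp2 with 57.8% stood above Cbln1 with 55.3%. A curve fitted to all expressed genes gave -0.65 for a gene of the GC content and length of Calb1, -0.43 for Car8, -0.36 for Neurod1, -0.27 for Ppp1r17 and 0.88 for Cbln1. The measured values were -0.50, -0.33, -0.22, -0.24 and 0.51. Pvalb was measured at 0.52 against 0.11 from the curve, and against -0.02 with coding transcripts, so its difference was mostly outside the trend. Zic1 was at 0.05 against -0.25, Itpr1 at 0.09 against -0.07, and Cbln3 at -0.15 against -0.04. The curve of coding transcripts gave 0.64 for Cbln1, -0.08 for Zic1, 0.07 for Itpr1 and 0.23 for Cbln3. For 8 of the 10 genes the measured value had the sign of the curve of longest transcripts. The gap from that curve was at most 0.41 in size for the 9 genes without Pcp2. For Pcp2 the curve gave 0.21 with its longest transcript and 1.11 with its coding transcripts, against the measured 2.90.

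**Figure D3:**
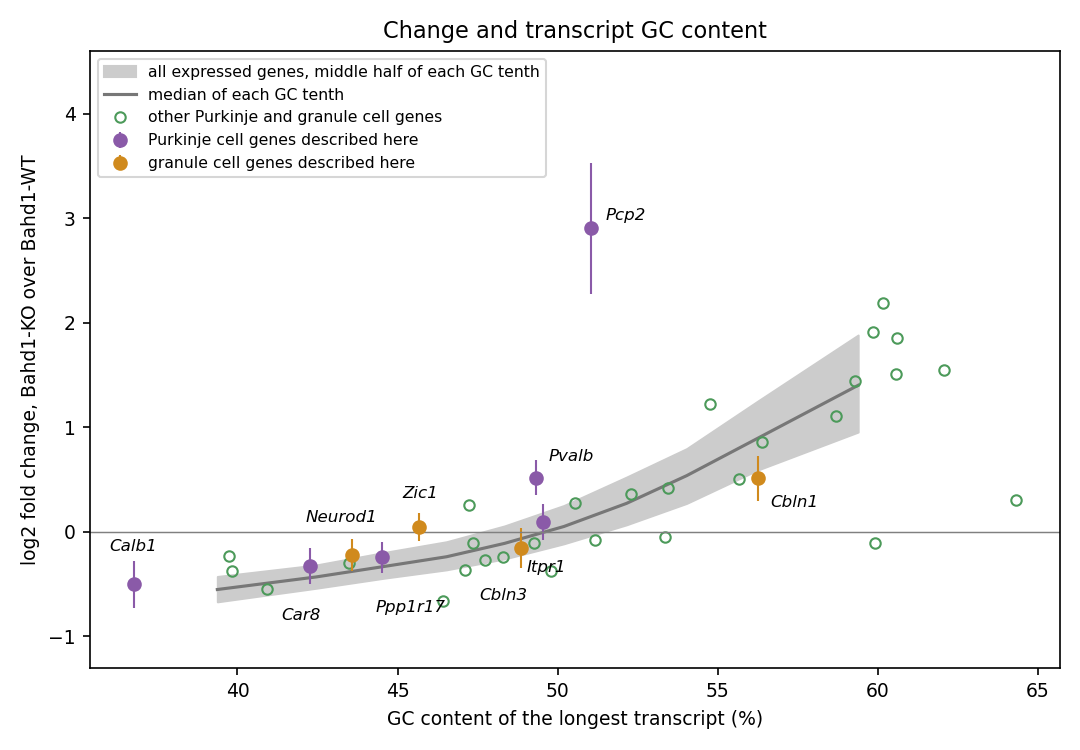
Log2 fold change, Bahd1-KO over Bahd1-WT, against the GC content of the longest transcript in percent. The band holds the middle 50% of the expressed genes in each of 10 bins by GC content with the median as a line, open circles are other Purkinje and granule cell genes, filled circles the 10 genes with standard errors. Pcp2 lies far above the band at 51.1% GC and 2.90, while most of the other 9 genes lie on or near it.

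The levels in single libraries also bear on how the hemispheres were cut, since a hemisphere with more or less cerebellum would have more or less of these RNAs together. The 9 genes without Pcp2 summed to 2510 to 2893 CPM per library, and their mean log2 level stayed between -0.05 and 0.10 of the mean of the 6 libraries, with Bahd1-WT replicate 2 highest. Itpr1 and Calb1, which are also made outside the cerebellum, had 806 and 492 of the 2655 CPM in Bahd1-WT replicate 1. The sum thus does not measure the share of cerebellum alone. Gabra6, a GABA receptor subunit of cerebellar granule cells, had 176, 222 and 180.1 CPM in Bahd1-WT and 175, 138 and 179 CPM in Bahd1-KO replicates 1 to 3. It was lowest in Bahd1-KO replicate 2, and with a GC content of 39.7% it belongs to the genes of low GC. Its log2 fold change was -0.23, -0.12 without that mouse and 0.31 with the offset. From the lowest to the highest library, the single genes varied 1.13-fold for Zic1, 1.36-fold for Neurod1, 1.38-fold for Itpr1 and for Ppp1r17, 1.5-fold for Cbln3, 1.69-fold for Car8, 1.85-fold for Pvalb, 1.98-fold for Cbln1 and 2.17-fold for Calb1. The order changed with the offset of longest transcripts, from Ppp1r17, the narrowest, through 1.24-fold for Itpr1 and for Calb1, 1.30-fold for Car8, 1.46-fold for Neurod1, 1.51-fold for Cbln3, 1.53-fold for Zic1 and 1.59-fold for Cbln1 and for Pvalb. In Bahd1-KO replicate 2, where Pcp2 was highest, the mean of the 9 genes was -0.05, but the genes went both ways there: Cbln1, Pvalb and Zic1 were at their highest of the 6 libraries, and Calb1, Car8, Neurod1 and Ppp1r17 at their lowest.

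Genes of the hindbrain behind the cerebellum varied more, at far lower levels. The 6 Hox genes Hoxb2, Hoxb3, Hoxb4, Hoxb5, Hoxa5 and Hoxd4, which mark the medulla and spinal cord, summed to 8.80, 16.8 and 5.60 CPM in Bahd1-WT and to 13.4, 16.3 and 17.5 CPM in Bahd1-KO replicates 1 to 3. The highest library had 3.12 times the lowest, the genotypes overlapped, and none of the 6 genes had an unadjusted p under 0.05 in edgeR. Their median GC content was 54.1%, and their median log2 fold change was 0.59, and 0.06 with the offset of longest transcripts. The GC trend of the libraries thus also enters these sums. Bahd1-WT replicates 1 and 3 were lowest. Neurod6, a gene of cortical excitatory neurons, ran from 55.7 CPM in Bahd1-WT replicate 1 to 115 CPM in Bahd1-WT replicate 3. The part of these differences between hemispheres in the values of the 10 genes was not tested.

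**Figure D4:**
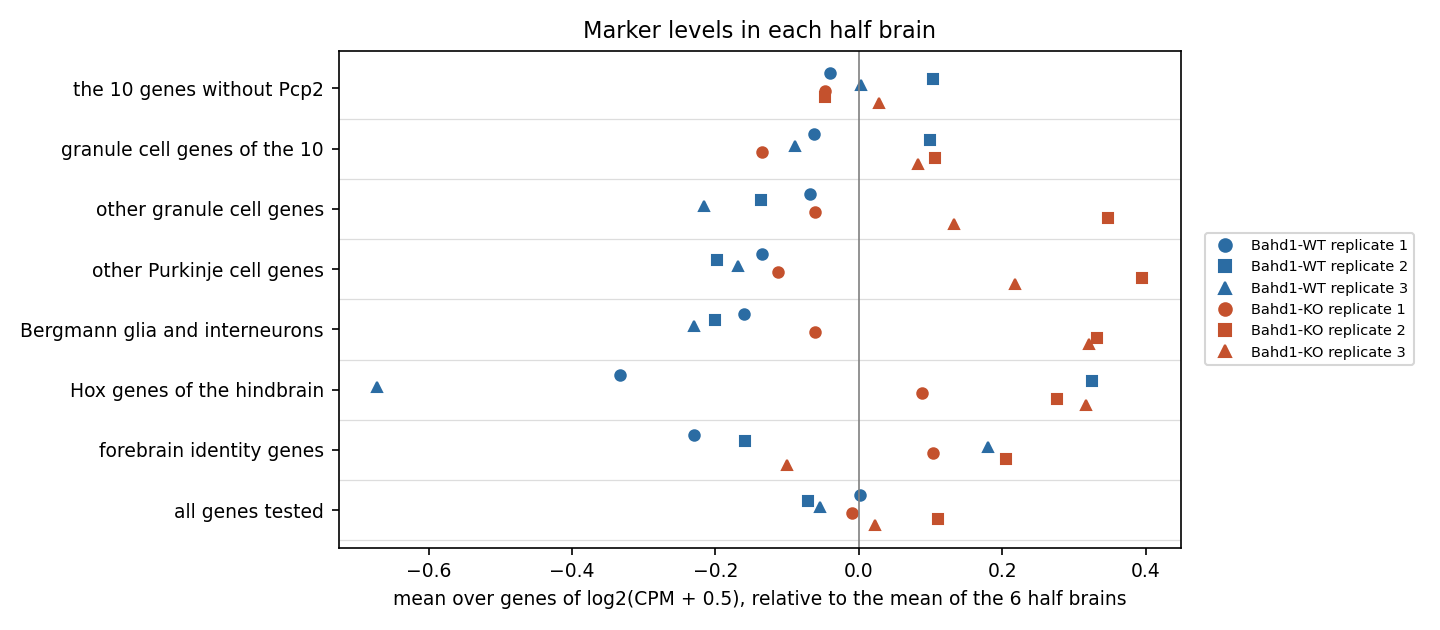
Mean over the genes of each list of log2(CPM + 0.5) in each hemisphere, relative to the mean of the 6 hemispheres, with blue for Bahd1-WT, orange for Bahd1-KO and a symbol for each replicate number. The 9 genes without Pcp2 lie between -0.05 and 0.10, while the Hox genes run from -0.67 to 0.32. Other Purkinje and granule cell genes are highest in Bahd1-KO replicate 2, at 0.40 and 0.35, and so are all genes tested, at 0.11. The median GC content is 53.4% for the other Purkinje cell genes, 51.0% for the other granule cell genes and 48.7% for all genes tested.

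Further genes of these cells and of their signalling were counted at an unadjusted p under 0.05 in edgeR, where 19.9% of all genes were higher and 12% lower. With the offset of longest transcripts, 2370 of all 23975 genes were higher and 2743 lower. Of 15 further Purkinje cell genes, 6 were higher and 1 was lower, 1 was higher and 3 were lower with the offset, and none was called in edgeR. Their median was 0.28 on the log2 scale, and -0.10 with the offset. DESeq2 with the normal prior called Homer3, Grid2ip, Gng13 and Lhx5 of these, all higher, beside 10.5% of all genes. Homer3, a scaffold between glutamate receptors and the inositol trisphosphate receptor, had 13.2, 8.52 and 8.95 CPM in Bahd1-WT and 18.3, 83.9 and 37.8 CPM in Bahd1-KO replicates 1 to 3. As for Pcp2, the genotypes did not overlap and Bahd1-KO replicate 2 was far above the rest. Its log2 fold change was 2.19, 1.46 without Bahd1-KO replicate 2 and 0.67 with the offset, at a GC content of 60.2%. Grid2ip, a scaffold of the Purkinje cell synapse, had a log2 fold change of 1.86, 1.22 without that mouse and 0.29 with the offset. For Gng13, a G protein subunit, these values were 1.11, 0.72 and -0.23, and for Slc1a6, the glutamate transporter of Purkinje cells, 0.86, 0.53 and -0.10. Rora, a nuclear receptor that Purkinje cells need, was the gene on the lower side, at -0.55, -0.36 without that mouse and -0.02 with the offset.

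Of 14 further granule cell genes, 4 were higher and 1 was lower at an unadjusted p under 0.05 in edgeR, 4 were higher and 3 were lower with the offset, and none was called in edgeR. Their median was 0.08 on the log2 scale, and 0.01 with the offset. DESeq2 with the normal prior called Cdh15, Grin2c, Barhl1 and Gabrd of these, all higher, beside 10.5% of all genes. Cdh15, a cadherin, had a log2 fold change of 1.91, 1.32 without Bahd1-KO replicate 2 and 0.48 with the offset. Gabrd, the delta subunit of extrasynaptic GABA receptors, was at 1.22, 0.82 and 0.49. Of the relatives of Zic1 and Neurod1, 9 of 10 were tested, and 1 was higher and 2 were lower at this threshold, against 0 and 5 with the offset. Neurod4, a helix-loop-helix relative of Neurod1, was on the lower side at -0.84, -0.63 without that mouse and -0.22 with the offset, from levels of at most 1.08 CPM.

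Around the synapse of cerebellin-1, 7 genes were tested, and 1 was higher and 1 was lower at an unadjusted p under 0.05 in edgeR, against 1 and 0 with the offset. Nrxn2, a neurexin with a GC content of 62.4%, had 49.5, 31.8 and 42.6 CPM in Bahd1-WT and 66.8, 345 and 121 CPM in Bahd1-KO replicates 1 to 3. The genotypes did not overlap, and the log2 fold change was 2.10, 1.19 without Bahd1-KO replicate 2 and 0.36 with the offset. Of 19 genes of inositol trisphosphate and calcium signalling, 8 were higher and none was lower at this threshold, but 1 was higher and 2 were lower with the offset. Their median was 0.23, and -0.13 with the offset. Beside Homer3, the kinase gene Itpka was at 1.35, 0.75 without that mouse and -0.23 with the offset. The same 3 values were 1.01, 0.69 and -0.16 for the calmodulin gene Calm3, and 0.59, 0.39 and 0.07 for the kinase subunit gene Camk2b.

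Of 9 genes of Bergmann glia and cerebellar interneurons, 3 were higher and none was lower at an unadjusted p under 0.05 in edgeR, with and without the offset. Aldoc, an aldolase of Bergmann glia, of astrocytes and of the zebrin stripes of Purkinje cells, had 729.6, 582 and 649 CPM in Bahd1-WT and 894, 1644 and 1061 CPM in Bahd1-KO replicates 1 to 3. The Bahd1-KO mice lay above the Bahd1-WT mice, and the log2 fold change was 0.88, 0.58 without Bahd1-KO replicate 2 and 0.59 with the offset. Grm2, a glutamate receptor of Golgi cells, was at 1.70, 1.10 and 0.65, and Dao, an oxidase of D-amino acids in Bergmann glia, at 1.25, 0.80 and 0.43.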

How the data were processed

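RNA-seq of one brain hemisphere from each of 3 Bahd1-WT and 3 Bahd1-KO adult mice was used, with genotype and replicate number taken from the labels. Per the methods of the study and the processing notes, the authors trimmed reads with cutadapt 1.11, aligned them to GRCm38 (Ensembl release 92), for which STAR 2.5.0a and Tophat2 are both named, and counted reads on exons by strand with featureCounts 1.4.6-p3. The accounts of the sequencing run also differ. The authors deposited raw counts for 53801 genes, 1 column per mouse, without normalization. The table held 0 columns of other samples.

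Genes with at least 10 counts summed over the mice were tested with edgeR 4.0.16 in R 4.3.3 (TMM factors, quasi-likelihood test, genotype as the only factor, Benjamini-Hochberg adjustment over 23975 genes), and called at an adjusted p under 0.05 and at least 2-fold. Standard errors come from that fit. Levels in CPM use TMM library sizes, and 3 counts equal 0.0315 to 0.0690 CPM, which covers counting error only. GC content, length and positions came from GENCODE M21 (GRCm38), available for 23940 of the genes tested. For the offset, natural splines (5 degrees of freedom for GC content, 3 for log length) were fitted in each library to 13283 genes with a mean log2 CPM above 1.

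Alternatives were DESeq2 1.42.0 with and without the normal prior, other size factors and filters, each mouse left out, a replicate block and the offset. The scripts were tested on simulated data.

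The 10 genes and the gene lists were chosen with earlier results of these data known. All 10 genes are described. Of the other lists, genes are named when the genotypes did not overlap and the unadjusted p was under 0.05, at most the 4 largest changes per list, plus Gabra6, Slc1a6 and Bahd1. A few genes that this rule selects are not reported here. Rora (as a Purkinje cell gene), Neurod6, Lhx5, Grin2c, Barhl1 and the Hox genes were named after their values were seen. The embryonic brains were not analysed here.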

Additional observations from a re-analysis of the deposited data

How the results depend on the processing

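The number of the 10 genes called, 0 in edgeR, was 1 (Pcp2) with total counts alone, with DESeq2 without or with the prior and with no filter beyond 1 count, and 0 to 1 when single mice were left out. It was 1 without Bahd1-KO replicate 1, where Pcp2 was at 3.36. Their median log2 fold change of -0.05 was -0.20 with upper-quartile factors, which moved the median of all genes tested from -0.06 to -0.20, 0.13 with the GC and length offset, 0.13 with that offset and the replicate block, 0.17 with the offset of coding transcripts, 0.14 with the offset in DESeq2, and -0.12 to 0.033 with single mice left out. Itpr1 and Zic1 changed sign with upper-quartile factors, to -0.045 and -0.10, and Itpr1 without Bahd1-KO replicate 3, to -0.027. With the offset, 5 genes changed sign: Calb1 to 0.11, Cbln1 to -0.41, Car8 to 0.10, Neurod1 to 0.15 and Ppp1r17 to 0.026. In the same order, the values were 0.11, -0.40, 0.095, 0.14 and 0.021 with the offset and the block, 0.20, -0.18, 0.20, 0.26 and 0.14 with the offset of coding transcripts, and 0.12, -0.37, 0.12, 0.16 and 0.045 with the offset in DESeq2. Of 180 values of single genes under alternatives, 152 kept their direction and side of the threshold. Without Bahd1-KO replicate 1, Calb1, Cbln1 and Pvalb had adjusted p-values of 0.0224, 0.0209 and 0.0328 in edgeR at -0.73, 0.72 and 0.62, where 30% of all genes passed an adjusted p under 0.05. Over all alternatives, these p-values ran from 0.0224 to 0.716, from 0.0209 to 0.404 and from 0.0328 to 0.261.

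Replicate numbers do not pair the mice. Deviations of same-numbered mice from their group means correlated at -0.63, -0.64 and -0.14, and with the replicate block Pcp2 was at 2.62 (adjusted p = 0.122 in edgeR) and 0 of the 10 genes were called. Genes called among all tested numbered 2 in edgeR, 2522 and 2761 in DESeq2 with and without the prior, 2770 with no filter beyond 1 count, 2007 with total counts alone, 7 with the block, 4 with either offset in edgeR, 9 with offset and block, 183 with the offset in DESeq2, 3988 without Bahd1-KO replicate 1, and 0 to 4 without each of the other mice. The causes of these differences were not tested. With 3 mice per genotype, standard errors of 0.14 to 0.23 on the log2 scale limit what can be resolved for the 9 genes other than Pcp2.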

Other observations

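Genes of other brain regions and cell types were measured in the same libraries, and none of those listed here was called in edgeR. Their counts are at an unadjusted p under 0.05, first without and then with the GC and length offset, and each gene has its log2 fold change, then the value without Bahd1-KO replicate 2, then the value with the offset. Of 6 striatal genes, 2 were higher and 2 lower, and 0 and 3 with the offset. Ppp1r1b, of dopamine signalling, was at 0.92, 0.52 and -0.51, the adenosine receptor gene Adora2a at 1.35, 0.70 and -0.02, and the dopamine receptor gene Drd1 at -0.54, -0.43 and -0.33. Of 7 thalamic genes, 1 was higher and 2 lower, and 1 and 1 with the offset. Ramp3, a partner of the calcitonin receptor family, was at 2.33, 1.86 and 1.42, Rora at -0.55, -0.36 and -0.02, and Plekhg1 at -0.46, -0.38 and -0.33. Of 9 cortical interneuron genes, 1 was higher and 2 lower, and 0 and 3 with the offset. Erbb4 was at -0.60, -0.36 and -0.09, and Gad2 at -0.53, -0.37 and -0.21. Of 7 forebrain identity genes, 1 was higher and 0 lower, and 0 and 3 with the offset. The higher one was Emx1, at 2.42, 1.16 and 0.11. Of 6 dentate gyrus genes, 1 was higher and 1 lower, and 0 and 3 with the offset. C1ql2 was at 1.06, 0.49 and -0.69, so that its sign turned, and Prox1 at -0.42, -0.30 and -0.14. Of 11 hindbrain and brainstem genes, 1 was higher and 0 lower, with the same counts with the offset. Without it the higher one was Chat, which makes acetylcholine, at 1.00, 0.95 and 0.37.

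Of 8 genes of meninges and choroid plexus, 2 were higher and 2 lower, and 1 and 3 with the offset. Ttr, the transthyretin gene of the choroid plexus, had 309, 285 and 213 CPM in Bahd1-WT and 402, 1018 and 554 CPM in Bahd1-KO replicates 1 to 3. The Bahd1-KO mice lay above the Bahd1-WT mice, and the 3 values were 1.29, 0.83 and 1.43. Those of Slc6a13 were 0.74, 0.59 and 0.09, those of Lum -0.61, -0.38 and -0.20, and those of Kl -0.40, -0.39 and -0.29. Of 6 pan-neuronal genes, 3 were higher and 1 lower, and 2 and 2 with the offset. The tubulin gene Tubb3 was at 2.06, 1.34 and 0.78, Eno2 at 0.62, 0.47 and -0.06, and Map2 at -0.56, -0.37 and -0.38. Of 8 glial genes, 3 were higher and 1 lower, and 3 and 0 with the offset. The endothelial tight junction gene Cldn5 was at 2.56, 1.45 and 0.86, the myelin gene Mbp at 1.17, 0.78 and 1.00, and the astrocyte water channel gene Aqp4 at -0.47, -0.30 and 0.0074.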
